A study of Mus musculus with 6 samples.

Results

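Elastic fibre and microfibril genes were described in MC3T3-E1 cells, an established line of pre-osteoblasts from the calvaria of C57BL/6 mice. The set was given as 10 gene symbols, Eln, Fbn1, Fbn2, Fbln1, Fbln2, Fbln5, Efemp1, Efemp2, Mfap4 and Mfap5. Each was found once among the 23358 gene rows of the deposited count table. The rule itself uses no measured value, but the members were chosen with earlier results of these data known. Cells grown to confluency in medium with 10% serum received NU7441 at 1 µM, a compound that inhibits DNA-PK, the DNA-dependent protein kinase, or the solvent DMSO alone, each for 16 h. There were 3 sequenced samples of each treatment, none of them with a genetic change named in the labels. The design text says that triplicates from independent experiments were pooled, without saying how the numbered samples relate to them, and p-values here reflect only how these samples vary, which may be technical.

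Elastic fibres have a core of crosslinked elastin within a sheath of microfibrils. Microfibrils are polymers of the fibrillins, large glycoproteins encoded by Fbn1 and Fbn2, and they carry smaller partners such as the microfibril-associated proteins. Fibulins, including those encoded by Fbln5, Efemp1 and Efemp2, bridge elastin, fibrillin and the lysyl oxidases that crosslink elastin. Microfibrils also exist without elastin, and in bone they bind latent TGF-beta complexes and BMPs.

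Libraries held from 47312968 to 71292628 gene counts. All counts were even, so a read pair appears to have been entered as 2 counts. Of the 9 osteoblast markers, 7 averaged at least 1 count per 1000000 scaled gene counts (CPM), among them Runx2, Sp7 and Col1a1, whereas Bglap and Bglap2, the osteocalcin genes of mature osteoblasts, stayed below that level. Markers on this list moved both ways with NU7441 in edgeR: Spp1 (osteopontin; log2 fold change 0.25, adjusted p = 5.2e-06) and Col1a2 (0.05, 0.024) rose, Ibsp (bone sialoprotein; -0.89, 0.00041) and Alpl (alkaline phosphatase; -0.29, 0.0060) fell, and Runx2 (0.81), Sp7 (0.30) and Col1a1 (0.97) did not pass. Vascular smooth muscle, a cell type rich in elastic fibres, was read from 6 markers. They summed to between 133 and 134 CPM in DMSO and between 131 and 139 in NU7441. Of these markers 3 averaged at least 1 CPM, namely Smtn (90.3 in DMSO and 82.7 in NU7441), Lmod1 (41.8 and 50.9) and Des. Myh11 and Myocd, which define that type, and Cnn1 stayed below 1 CPM in all samples. On that list Lmod1 rose (log2 fold change 0.29, adjusted p = 0.00075 in edgeR) and Smtn fell (-0.13, 0.012). The chondrocyte list, through Sox9, summed to between 81.4 and 83.8 CPM in DMSO and between 87.5 and 91.8 in NU7441, with Acan at 0 in all 6 samples and 3 of its 6 genes averaging at least 1 CPM. There Sox9 (0.14, adjusted p = 0.0058 in edgeR) and Col2a1 (0.23, 0.046) rose and Matn3 (-0.84, 0.017) fell on the log2 scale. Tendon markers summed to between 27.8 and 29.6 CPM across all samples. Of these Scx (log2 fold change 0.03, adjusted p = 0.75 in edgeR) and Mkx (-0.10, 0.40) did not pass. Tnmd, at 1.09 CPM in DMSO and 1.68 in NU7441, rose (0.61, adjusted p = 0.038 in edgeR). It rose without overlap, as 20.6% of all genes tested did. Its counts were 58, 52 and 82 in DMSO and 96, 68 and 102 in NU7441. Of the adipocyte, endothelial and skeletal muscle lists no gene averaged 1 CPM, and of the blood-cell list 1 gene did. The part of these cell types in the results was not tested.

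Promoter sequence is shown for the 3 members that rose together by a small amount, Fbn1, Fbln5 and Efemp2, and for Efemp1, whose transcript was nearly undetected although its product, fibulin-3, is a close relative of that of Efemp2. The RefSeq table of build GRCm38.p6 had entries for 6 of the 10 members, and Eln, Fbn2, Mfap4 and Mfap5 had none. The 250 bases before the start site nearest to the start of the deposited row are given 5′ to 3′ on the gene's strand, and capitals mark the GC box GGGCGG or its reverse complement CCGCCC, overlaps included. The windows are chr2:125506439-125506688 on the minus strand for Fbn1, chr12:101819120-101819369 on the minus strand for Fbln5, chr19:5474440-5474689 on the plus strand for Efemp2 and chr11:28852955-28853204 on the plus strand for Efemp1.
Fbn1: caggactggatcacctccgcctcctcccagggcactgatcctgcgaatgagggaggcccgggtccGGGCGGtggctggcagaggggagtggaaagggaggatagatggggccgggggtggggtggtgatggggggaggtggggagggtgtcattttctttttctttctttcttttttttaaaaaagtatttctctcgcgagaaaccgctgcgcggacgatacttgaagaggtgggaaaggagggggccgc
Fbln5: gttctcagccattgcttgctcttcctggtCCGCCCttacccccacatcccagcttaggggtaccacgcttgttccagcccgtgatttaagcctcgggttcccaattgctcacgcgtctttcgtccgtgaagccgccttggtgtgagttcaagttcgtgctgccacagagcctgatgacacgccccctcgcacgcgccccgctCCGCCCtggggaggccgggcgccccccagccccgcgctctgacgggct
Efemp2: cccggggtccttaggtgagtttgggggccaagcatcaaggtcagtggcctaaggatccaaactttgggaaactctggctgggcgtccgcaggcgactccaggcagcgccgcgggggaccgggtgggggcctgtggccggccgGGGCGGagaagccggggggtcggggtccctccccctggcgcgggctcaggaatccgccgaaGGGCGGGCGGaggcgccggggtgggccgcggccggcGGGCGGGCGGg
Efemp1: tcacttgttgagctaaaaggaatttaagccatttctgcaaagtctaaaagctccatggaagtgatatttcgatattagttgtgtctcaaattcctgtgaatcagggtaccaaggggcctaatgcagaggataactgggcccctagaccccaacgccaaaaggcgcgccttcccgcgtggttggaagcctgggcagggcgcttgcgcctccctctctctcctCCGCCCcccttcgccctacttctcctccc

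The Efemp2 window held 5 GC boxes, that of Fbln5 held 2, and those of Fbn1 and Efemp1 held 1 each. GC boxes occurred in 32.7% of 32817 mouse promoter windows of the same length. The GC content was 75.6% for Efemp2, 65.2% for Fbln5, 59.2% for Fbn1 and 53.6% for Efemp1, against a median of 52.4% over all windows. Searched on both strands, the TATA box TATAAA, which 12.4% of windows held, was found in none of the 4, and the SMAD-type element CAGACA, in 17.1% of windows, in none of them either. The AP-1 site TGANTCA, in 6.75% of windows, was found once, in Efemp1, and the CCAAT box CCAAT, in 33.8%, once, in Fbln5. Of the other members with an entry, Fbln1 and Fbln2 each had 1 GC box, and Fbln1 also had 1 CAGACA. These matches describe the letters of the windows. Both the most abundant fibulin and the least abundant one had a GC box before the start.

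The members fell into 6 abundant transcripts and 4 that were barely detected. Levels between genes are compared in the deposited RPKM, which are counts per kilobase of the deposited gene length and per 1000000 reads of a sample total. Efemp2, which encodes fibulin-4 and is needed for elastin crosslinking, had the highest mean over the 6 samples at 146 RPKM. It was followed by Fbn1 at 115 RPKM, Fbln2, which encodes a fibulin of basement membranes and microfibrils, at 96.3, and Fbn2, the fibrillin prominent in development, at 34.7. Mfap5, which encodes the small microfibril glycoprotein MAGP-2, had 16.3 RPKM and Fbln5, which encodes the elastin-binding fibulin-5, 11.0. Efemp2, Fbn1 and Fbln2 made up 85.4% ± 0.2 (SD, n = 3) of the summed RPKM of the members in DMSO and 84.9% ± 0.3 in NU7441. Each of the 6 lay above the next in all 6 samples with no overlap of their ranges.

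That order depends on the gene length used. The deposited length of Efemp2 is 1842 bases and that of Mfap5 1410, whereas the merged exons of GENCODE M21 span 3788 and 3589. With the GENCODE lengths, an alternative chosen after seeing the data, Fbn1 came first at 93.9, ahead of Efemp2 at 70.8 and Fbln2 at 67.7 on the same per-kilobase scale. Fbln5, at 9.28, then lay above Mfap5, at 6.39. The split into abundant and barely detected genes held with both lengths. With the deposited lengths, mean RPKM of Fbln5 was 57.9-fold that of Mfap4, the next gene down. With the GENCODE lengths, Mfap5 at 6.39 was the lowest of the abundant genes, and Mfap4, again next, had 0.15.

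**Figure D1:**
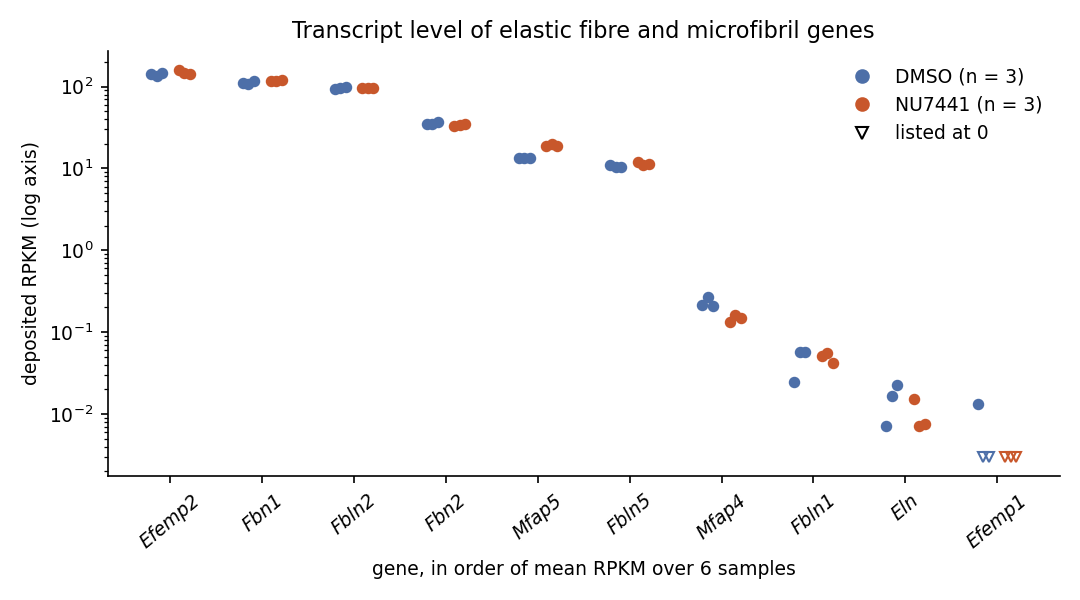
Deposited RPKM (log axis) of the 10 members in each DMSO and NU7441 sample, ordered by their mean over 6 samples, with open triangles for values listed at 0. Efemp2, Fbn1, Fbln2, Fbn2, Mfap5 and Fbln5 lie above 10 RPKM in all samples, and Mfap4, Fbln1, Eln and Efemp1 lie below 1 RPKM.

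Eln, the only gene for elastin (mm10 chromosome 5, 134702596 to 134747254, ENSMUSG00000029675.12), was at the limit of detection. The DMSO samples had 2, 4 and 8 counts and the NU7441 samples 4, 2 and 2, which amounts to between 1 and 4 read pairs in libraries of 23656484 pairs or more. The groups overlapped, the gene was removed by the filter on low counts, and no fold change is given. In the same samples Fbn1 had from 67112 to 109734 counts. The elastin transcript was thus nearly undetected in libraries where that of the main microfibril protein was abundant. An antisense gene, Gm30003, overlaps the start of Eln in GENCODE M21, and the sources used here do not state whether reads were counted by strand. Gm9913, on the other strand, likewise overlaps the start of Fbn1. Among the deposited gene rows, none overlaps that of Eln, and Mir3110 overlaps that of Fbn1.

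Efemp1 (mm10 chromosome 11, 28853205 to 28926743), which encodes fibulin-3, had 2 counts in DMSO replicate 1 and 0 in the other 5 samples. A count of 0 allows up to 3 read pairs, or between 0.084 and 0.127 CPM over the 5 depths, for counting error only. Fbln1 (mm10 chromosome 15, 85206008 to 85286294), which encodes the elastin-associated fibulin-1, had 6, 12 and 18 counts in DMSO and 12, 14 and 10 in NU7441. The groups overlapped for Fbln1, and the 95% interval of its change ran from -41.6% to 108% (log2 fold change 0.14 ± 0.43 SE, adjusted p = 0.84 in edgeR), so that a difference was not detectable at this depth. Mean levels over the 6 samples thus ran from 146 RPKM for Efemp2 to 0.0479 for Fbln1 and 0.00223 for Efemp1 within the fibulin family.

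Of the 10 members 4 rose with NU7441 and none fell. Mfap5 rose by 47.4%, and Fbn1, Fbln5 and Efemp2 by 7.40% to 9.21%. Fbn2, Fbln2, Mfap4 and Fbln1 did not pass the test, and Eln and Efemp1 were not tested. All p-values come from edgeR's quasi-likelihood test on 13784 genes with Benjamini-Hochberg adjustment over all of them and a threshold of 0.05. In that fit 30.7% of all genes tested passed, 14.1% higher and 16.6% lower in NU7441, against 4 higher and 0 lower among the 8 members tested. The members were chosen with earlier results of these data known, so such counts describe only the members. The number of members lower was also 0 at an unadjusted p under 0.05 in edgeR and at the adjusted threshold in DESeq2 and limma-voom, although DESeq2 gave Mfap4 and Fbln1 no adjusted p. The CPM of the groups did not overlap for 5 of these 8, 4 higher and 1 lower, where the share over all genes tested was 42.8%, with 20.6% higher and 22.2% lower. The members' median log2 fold change was 0.11 and that of all genes tested 0.01, with the interquartile range of all genes from -0.12 to 0.12. With upper-quartile scaling 56.5% of all calls were higher in NU7441, against 45.9% with the TMM scaling used here, and the same 4 members were called. With library size as the only scaling 37.7% of all calls were higher and 3 members were called, without Efemp2. In these bulk samples more transcript per cell and more cells that carry it cannot be told apart.

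**Figure D2:**
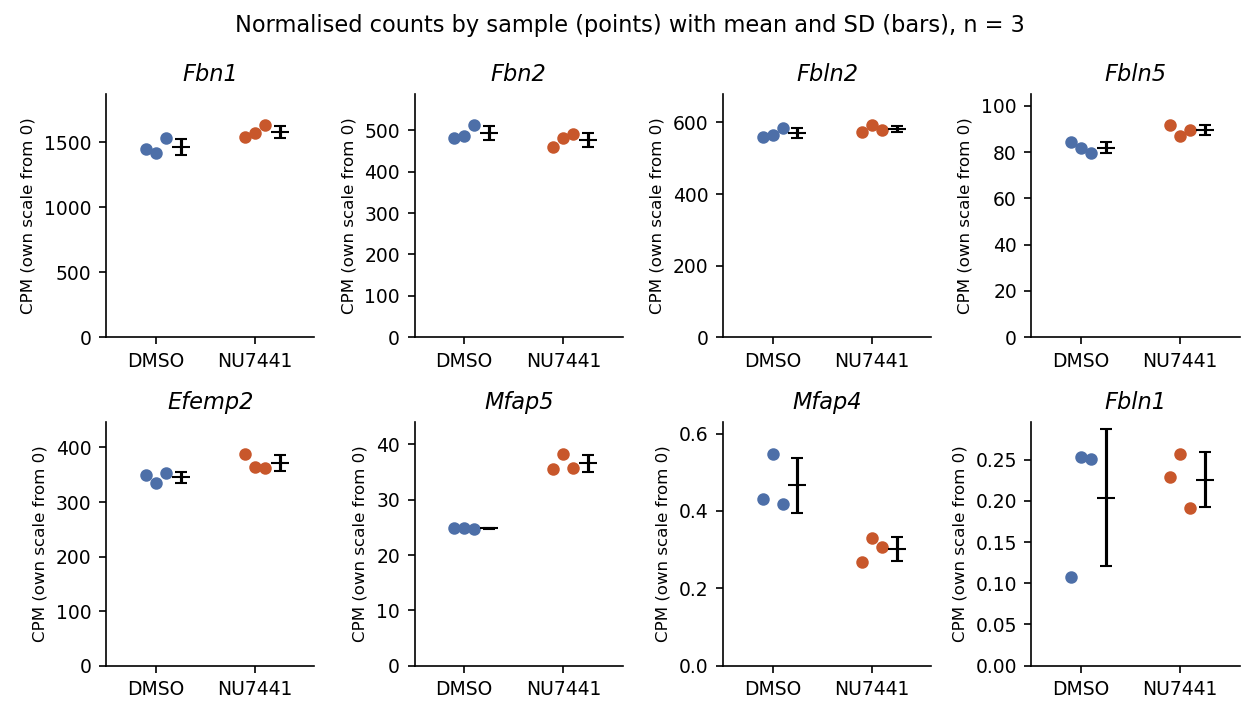
Normalised counts (CPM, each panel on its own axis from 0) of the 8 tested members in the 3 DMSO and 3 NU7441 samples, with the mean and SD beside the points. Mfap5 is well separated, with means of 24.8 and 36.5 CPM, and Fbn1, Fbln5 and Efemp2 separate narrowly.

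Mfap5 (mm10 chromosome 6, 122513676 to 122529287, ENSMUSG00000030116.14) changed most in proportion among the members that passed. The DMSO samples had 24.9, 24.9 and 24.6 CPM, and the NU7441 samples 35.6, 38.3 and 35.7. The DMSO values, from 692, 590 and 884 read pairs, lay closer together than counting error alone would make likely. Their SD may therefore understate the variation. Every NU7441 sample was above all DMSO samples. The means were 24.8 ± 0.145 (SD, n = 3) and 36.5 ± 1.52 CPM, and edgeR gave a log2 fold change of 0.56 ± 0.04 (SE) with an adjusted p of 7.3e-08. Its protein binds fibrillins and, through an RGD sequence, integrins. In the 15 alternative fits the log2 fold change of Mfap5 lay between 0.53 and 0.59, and the call was kept in each.

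Of the fibrillins, Fbn1 rose slightly and Fbn2 did not pass the test. Fbn1 (mm10 chromosome 2, 125300594 to 125506438, ENSMUSG00000027204.13), the gene mutated in Marfan syndrome, had 1446, 1414 and 1529 CPM in DMSO and 1539, 1573 and 1630 in NU7441. The lowest NU7441 sample lay just above the highest DMSO sample. The rise of 8.05% had a 95% interval from 3.56% to 12.7% (log2 fold change 0.11 ± 0.03 SE, adjusted p = 0.0079 in edgeR). Without NU7441 replicate 3 the call of Fbn1 was lost (adjusted p = 0.0515). In the deposited RPKM, which use one total per sample and no TMM factor, the groups of Fbn1 overlapped.

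Fbn2 (mm10 chromosome 18, 58008623 to 58209926, ENSMUSG00000024598.9) had 482, 486 and 512 CPM in DMSO and 459, 481 and 491 in NU7441. The groups overlapped, and the log2 fold change was -0.05 ± 0.03 (SE) with a 95% interval from -0.12 to 0.02 (adjusted p = 0.31 in edgeR). In the deposited RPKM, by contrast, every NU7441 sample of Fbn2 (33.0, 33.7 and 34.5) lay below every DMSO sample (34.9, 34.8 and 37.2). Within each sample, where scaling between samples cancels, Fbn2 made up 24.0%, 24.5% and 24.0% of the fibrillin RPKM in DMSO and 22.0%, 22.4% and 22.2% in NU7441. These shares did not overlap between the groups (24.2% ± 0.3 against 22.2% ± 0.2, SD, n = 3). The difference was not tested.

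Differences in the abundant fibulins were small. Fbln5 (mm10 chromosome 12, 101746565 to 101819055) had 84.3, 81.7 and 79.8 CPM in DMSO and 91.6, 87.1 and 89.7 in NU7441. Every NU7441 sample was above every DMSO sample, and the rise was 9.21% (log2 fold change 0.13 ± 0.03 SE, adjusted p = 0.012 in edgeR). Efemp2 (mm10 chromosome 19, 5474690 to 5481854) had 350.0, 334 and 353 CPM in DMSO and 388, 363 and 362 in NU7441. Its groups also did not overlap, with NU7441 replicate 1 highest, and the rise was 7.40% (log2 fold change 0.10 ± 0.04 SE, adjusted p = 0.039 in edgeR). In the deposited RPKM the groups of Efemp2 overlapped, and those of Fbln5 did not.

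The calls of both depended on which libraries were included. That of Fbln5 was lost without DMSO replicate 3 (adjusted p = 0.0692). The call of Efemp2 was lost without DMSO replicate 1 (0.0522), DMSO replicate 2 (0.178) or NU7441 replicate 1 (0.168), and with library size as the only scaling (0.13). The log2 fold change of Efemp2 without NU7441 replicate 1 was 0.07. Fbln2 (mm10 chromosome 6, 91212764 to 91272540) had 559, 566 and 586 CPM in DMSO and 575, 592 and 578 in NU7441. Those groups overlapped, and the 95% interval of the change in Fbln2 ran from -2.16% to 6.29% (log2 fold change 0.03 ± 0.03 SE, adjusted p = 0.49 in edgeR).

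Mfap4 (mm10 chromosome 11, 61485444 to 61488704), which encodes a fibrinogen-domain protein of microfibrils and elastic fibres, was expressed at a low level. It had 24, 26 and 30 counts in DMSO and 14, 18 and 16 in NU7441, which is 0.432, 0.548 and 0.418 CPM against 0.267, 0.331 and 0.306. Each NU7441 sample lay below each DMSO sample, as was the case for 22.2% of all genes tested. The log2 fold change of -0.61 ± 0.32 (SE) did not pass the test (adjusted p = 0.18 in edgeR), and its 95% interval ran from -1.29 to 0.08. These values rest on 7 to 15 read pairs a sample.

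Within samples Mfap5 stood higher relative to Fbn1 with NU7441, and the ratio of the elastin-binding fibulins Fbln5 and Efemp2 overlapped between the groups. In DMSO the RPKM of Mfap5 was 12.1%, 12.3% and 11.3% of that of Fbn1, and with NU7441 it was 16.2%, 17.1% and 15.4%, without overlap. Fbln5 stood at 7.61%, 7.73% and 7.15% of Efemp2 in DMSO and 7.45%, 7.57% and 7.83% in NU7441, and those ranges overlapped. The percentages themselves depend on the gene lengths, and their ratio between the groups does not. Neither comparison of ratios was tested.

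**Figure D3:**
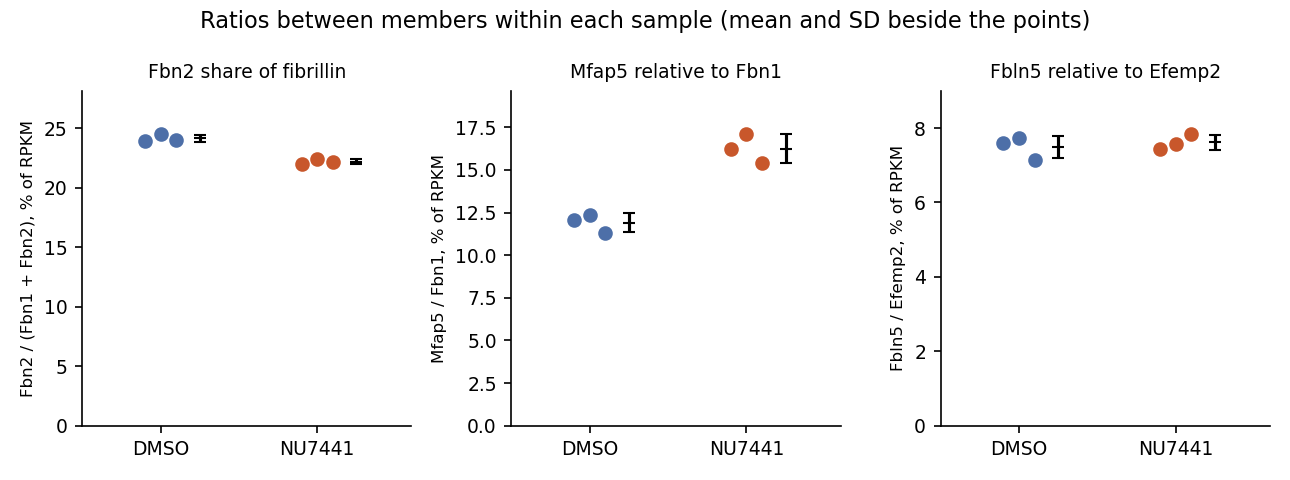
Fbn2 as a percentage of the summed fibrillin RPKM, Mfap5 relative to Fbn1 and Fbln5 relative to Efemp2 in each of the 3 DMSO and 3 NU7441 samples, with mean and SD beside the points and axes from 0. The first ratio is lower in NU7441 (22.2% against 24.2%), the second higher (16.2% against 11.9%) and the third overlaps.

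Further genes of the system were read from 4 lists of 48 genes in all, of which 41 were tested. Of these 18 rose and 2 fell, with a median log2 fold change of 0.09, where 14.1% of all genes tested rose and 16.6% fell. The lists were chosen with earlier results of these data known, so these counts describe only the listed genes. Lox, the lysyl oxidase that crosslinks elastin and collagen, had 573 ± 11.1 CPM in DMSO and 623 ± 2.3 in NU7441 (SD, n = 3) and rose by 0.12 ± 0.03 on the log2 scale (SE, adjusted p = 0.0025 in edgeR). It was the 1 gene of 5 in the crosslinking list that passed. Loxl1, the family member most tied to elastic fibres, had 52.5 ± 1.42 CPM in DMSO and 54.0 ± 1.71 in NU7441 (log2 fold change 0.04 ± 0.04 SE, adjusted p = 0.46 in edgeR). Loxl3 had a log2 fold change of 0.09 ± 0.04 (adjusted p = 0.12), Loxl4 of -0.02 ± 0.05 (0.79) and Loxl2 of -0.04 ± 0.14 (0.85). Loxl3 passed with upper-quartile scaling (0.12, adjusted p = 0.045) and without NU7441 replicate 2 (0.13, 0.041).

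Of the other microfibril and assembly genes 8 of 20 tested rose and 1 fell, with a median log2 fold change of 0.08. Over all genes tested 14.1% rose and 16.6% fell. Adamts6, a protease linked to microfibril turnover, had 27.8 ± 1.17 CPM in DMSO and 40.6 ± 1.49 in NU7441 and rose by 0.55 ± 0.04 on the log2 scale (SE, adjusted p = 1.7e-07 in edgeR). Ltbp2, a fibrillin-like protein that binds microfibrils, rose by 0.49 ± 0.04 and Ltbp3, which binds latent TGF-beta, by 0.24 ± 0.03. Hspg2, the gene for perlecan, rose by 0.11 ± 0.03 and Fn1, for fibronectin, by 0.18 ± 0.05, and the call of Fn1 was lost with robust dispersions (adjusted p = 0.198) and in DESeq2 (0.0844). Without NU7441 replicate 2 the log2 fold change of Fn1 was 0.11, and its call was kept. The 1 gene that fell was Vcan, which encodes the fibrillin-binding proteoglycan versican, by 0.25 on the log2 scale, and its call was lost with robust dispersions (adjusted p = 0.0869). Emilin2 had 121.5, 110.4 and 116.1 CPM in DMSO and 183.8, 122.1 and 120.3 in NU7441, with 1 library apart from the rest, and its log2 fold change was 0.29 ± 0.11 (SE, adjusted p = 0.067 in edgeR) with that library and 0.06 without it (adjusted p = 0.27). Emilin2 passed with upper-quartile scaling (0.32, adjusted p = 0.045), with no filter on low counts (0.29, 0.0080) and without NU7441 replicate 2 (0.39, 0.020) or 3 (0.40, 0.016). It did not pass in DESeq2 (adjusted p = 0.317) or with robust dispersions in edgeR (0.383). Mfap2, the gene for MAGP-1, the other small microfibril glycoprotein, was barely present, at 0.381 ± 0.035 CPM in DMSO and 0.277 ± 0.0603 in NU7441. Its samples had 12 to 26 counts, and its log2 fold change of -0.45 ± 0.34 (SE) did not pass (adjusted p = 0.36 in edgeR).

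Receptors of elastin, fibrillin and fibulins had 7 of 11 genes higher and 1 lower, with a median of 0.13. For these and for the proteases below, the shares over all genes tested were 14.1% higher and 16.6% lower. Both lists were chosen with earlier results of these data known, so the counts describe only the listed genes. Lgals3, which encodes galectin-3, an elastin-binding lectin, had 124 ± 4.93 CPM in DMSO and 158 ± 5.31 in NU7441 and rose by 0.35 ± 0.03 on the log2 scale (SE, adjusted p = 2.1e-06 in edgeR). Itgb5, an integrin subunit of RGD receptors, rose by 0.33 ± 0.04. Itga8, whose integrin also binds RGD ligands, fell by 0.36 ± 0.05 on the log2 scale, with 18.5 ± 0.693 CPM in DMSO and 14.3 ± 0.185 in NU7441. Of the elastin-degrading proteases 2 of 5 tested rose and none fell, with a median of 0.09. They were Ctsl, the gene for cathepsin L (0.30 ± 0.03), and Mmp2, for gelatinase A, from 903 ± 29.8 to 1043 ± 22.3 CPM (0.21 ± 0.03). Mmp7, Mmp12, Ctss and Elane were not tested because of low counts.

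**Figure D4:**
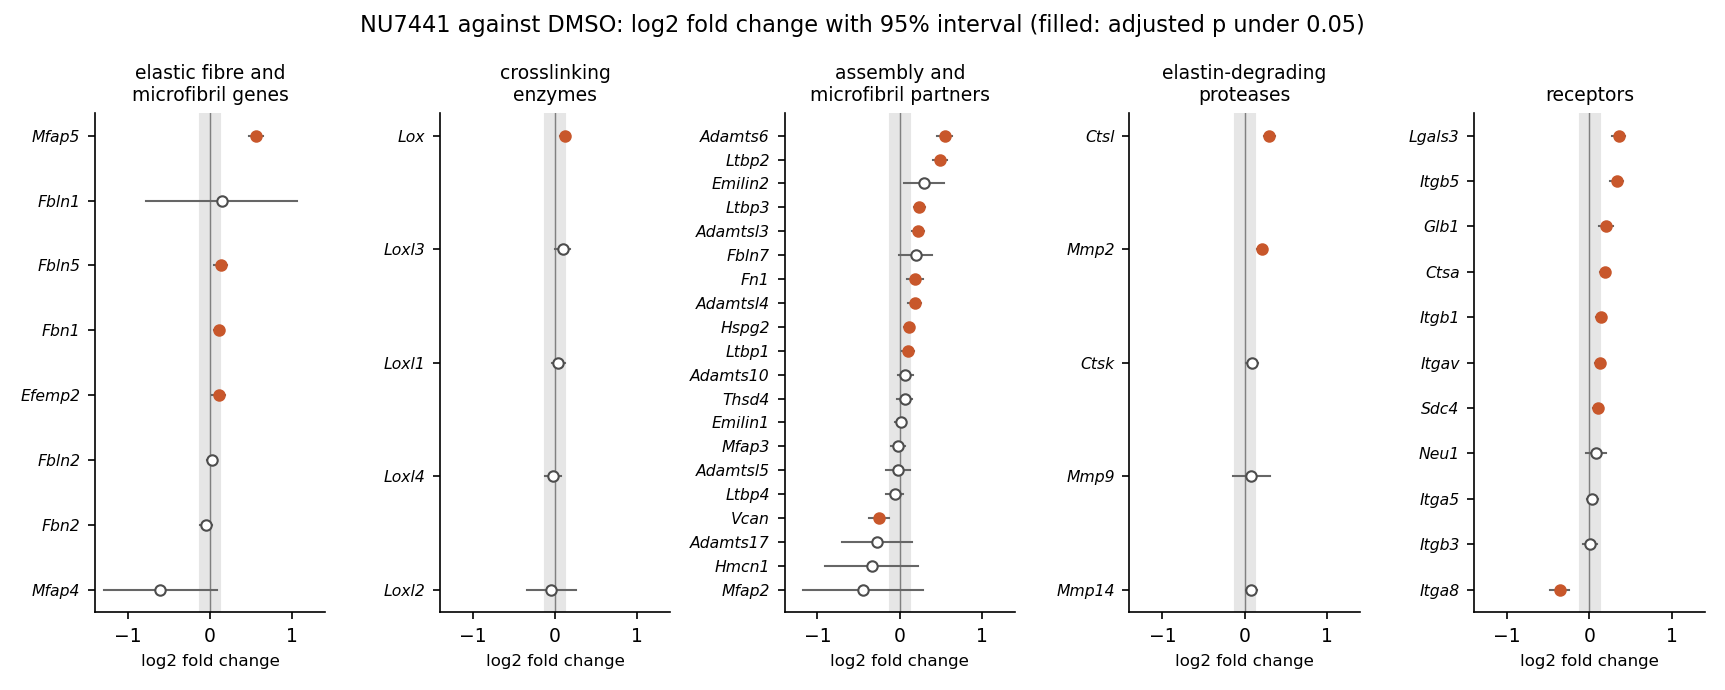
Log2 fold change of NU7441 against DMSO with its 95% interval for the tested members and for the genes of the 4 further lists, with filled points where the adjusted p is under 0.05 and a grey band for the interquartile range of all genes tested. Mfap5 (0.56) stands beside Adamts6 (0.55) and Ltbp2 (0.49), whereas Fbn1, Fbln5 and Efemp2 lie near the upper edge of the band at 0.12.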

How the data were processed

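Per the labels' protocols, libraries of 6 samples were prepared from total RNA with an mRNA kit of Illumina. Named in the submitters' processing notes are bcl2fastq, TopHat2 (version 2.0.6), HTSeq and the build mm10, without settings. For each gene the authors deposited counts, RPKM and a gene length, per the file headers. Counts were tested as deposited, and the deposited RPKM served for levels and ratios between genes.

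Low genes were removed with filterByExpr (minimum count 10, minimum total 15). TMM scaling and the two-sided quasi-likelihood test came from edgeR 4.0.16 (R 4.3.3), and the model held group alone. The SE is the log2 fold change divided by the square root of F, and CPM use the scaled library sizes. The procedure was tested on simulated data. Every pair of samples within a group differed beyond sampling noise. Alternatives were other scalings, no filter, DESeq2 1.42.0, voom of limma 3.58.1, robust dispersions, counts divided by 2, a replicate block and leaving out each sample.

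The members and lists were chosen with earlier results of these data known. Named genes were all members, every tested crosslinking gene and up to 3 called genes per other list with the lowest adjusted p. The rule also asked for the genes most like Eln, which was not tested. Fn1, Hspg2, Vcan, Emilin2, Mfap2, the untested proteases and the markers were named after their values were seen.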

Additional observations from a re-analysis of the deposited data

How the results depend on the processing

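In 15 alternatives the number of members called higher was 3 or 4 and the number lower 0. Mfap5 was called in all 15, Fbn1 and Fbln5 in 14 each and Efemp2 in 11. Left-out samples gave 3 to 4 members higher. Leaving out single samples moved the log2 fold change of Fbln1 between -0.15 (no DMSO replicate 1) and 0.36, of Loxl2 between -0.13 and 0.074, and of Loxl4 between -0.071 and 0.022. With upper-quartile scaling Loxl4 had 0.0059. These signs changed, none of these values was called, and the cause was not tested. The crosslinking genes called higher numbered 2 with upper-quartile scaling and with the replicate block, and 1 to 2 with a sample left out, the second being Loxl3 in each case. The proteases called higher numbered 4 with upper-quartile scaling, limma-voom, robust dispersions and the replicate block, against 2 in the fit used above. Over all genes tested, the calls higher numbered 1941 in that fit, 2488 with upper-quartile scaling and 2417 with the replicate block. With limma-voom they numbered 1946 and with robust dispersions 2017. The microfibril and assembly genes called lower numbered 0 with robust dispersions.

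The titles number the samples 1 to 3 in both groups. The correlation of same-numbered samples' deviations from the group means was 0.13, 0.09 and 0.05. Each sample correlated best with its own number, a hint of pairing from the data. The labels name no pairing, and the fit used above held group alone. With the replicate block 5120 genes were called in place of 4231, and the same 4 members were higher. Loxl3 (0.094, adjusted p = 0.016) and Emilin2 (0.27, adjusted p = 0.0038) passed with that block. Fbln1 was not tested with counts divided by 2. Depth limits Eln, Efemp1, Fbln1 and Mfap4.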

Other observations

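Because Eln had too few counts, the genes most like Mfap5 were looked up instead, a choice made after its values were seen. Over the 6 samples the log2 CPM of Mfap5 had the highest Pearson correlations, among 10958 named genes with a mean of at least 1 CPM, with Slc44a1, a choline transporter gene (r = 0.998), Dio3os, a non-coding transcript (0.998), Fat4, a large cadherin gene (0.997), Col4a1, a basement membrane collagen gene (0.997), and Nlgn2 (0.997). All 5 rose with NU7441, Dio3os by 0.67 ± 0.05, Fat4 by 0.41 ± 0.03 and Col4a1 by 0.23 ± 0.03 on the log2 scale (SE, edgeR). The points share the 2 treatment groups, so these values describe that step between groups.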
